A study of Mus musculus with 13 samples.

Results

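The genes described here build and operate the outermost barrier of the skin, the cornified envelope of the epidermis, and they were followed in mouse tail tissue with lymphedema, a swelling that follows failed lymphatic drainage. The members were taken by gene symbol from the table of counts. They were every late cornified envelope gene (Lce) and every small proline-rich gene (Sprr) that is not a pseudogene, and 18 further genes named singly, among them Lor, Ivl, Flg, Tgm1, Tgm3, Dsg1a and Klk7. This gave 53 members among 55357 genes in the table, after 3 Sprr2 pseudogenes were left out. TNT is read here as tissue nanotransfection, the delivery of nucleic acids into skin by a short electric field. The group TNTProx1 (6 libraries) is named for Prox1, the transcription factor that sets lymphatic endothelial identity, and TNTSham (7 libraries) is the sham group. Every library was tail tissue taken at day 28 after TNT from mice aged 12 weeks. The labels name no strain, sex or construct, and numbers such as TNTProx1 4 only name a library. Whether each library is a different animal is not stated either, and p-values therefore measure only the spread between these libraries.

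The cornified envelope forms when keratinocytes of the upper epidermis die. Transglutaminases cross-link loricrin (Lor), involucrin (Ivl), the small proline-rich proteins and the late cornified envelope proteins into a sheath under the cell membrane. Filaggrin (Flg) and its relatives, which join an S100 domain to long repeats, bundle keratin and are later cut to small moisture-holding products. Corneodesmosin, desmoglein 1 and desmocollin 1 (Cdsn, Dsg1a, Dsc1) hold the dead cells together until kallikreins such as Klk5 and Klk7 cut these junctions and the cells are shed. Most of the structural genes lie side by side in a cluster, the epidermal differentiation complex. In the mouse this cluster is on chromosome 3, and 41 of the 53 members lie there. The other 12 include the transglutaminases, the kallikreins and the desmosome genes.

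RefSeq promoter sequences (GRCm38.p6, an older build than that of the counts) were found for 50 of the 53 members, as 52 promoters. The 250 bases before each start were searched on both strands. The letters TGANTCA, the pattern read by the AP-1 factors that act in keratinocyte differentiation, were in 16 of the 52 member promoters and in 6.75% of 32851 mouse promoters of the same length. They were in those of Lor, Ivl, Sprr1a, Sprr1b, Flg, Flg2, Rptn, Sbsn, Krtdap and 7 of 10 Sprr2 genes. None of the Sprr2a1, Sprr2a2, Sprr2a3, Lce1 or Lce3 promoters held these letters in this window. The letters TATAAA were in 21 member promoters and in 12.4% of all promoters, and no match to one of these patterns can overlap a match to the other. The promoters of Lor (chr3:92083143-92083292, minus strand), Ivl (chr3:92573736-92573885, minus strand), Sprr1a (chr3:92485882-92486031, minus strand) and Sprr2b (chr3:92316505-92316704, plus strand) show where the match lies in precursor genes of each kind. They are written 5' to 3' up to the last base before the start, with TGANTCA in capitals.
Lor: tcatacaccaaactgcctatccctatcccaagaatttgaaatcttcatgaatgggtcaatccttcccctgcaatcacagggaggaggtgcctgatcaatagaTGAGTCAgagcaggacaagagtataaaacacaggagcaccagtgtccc
Ivl: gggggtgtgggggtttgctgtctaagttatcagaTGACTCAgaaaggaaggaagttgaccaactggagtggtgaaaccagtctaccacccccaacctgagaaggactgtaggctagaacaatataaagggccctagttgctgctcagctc
Sprr1a: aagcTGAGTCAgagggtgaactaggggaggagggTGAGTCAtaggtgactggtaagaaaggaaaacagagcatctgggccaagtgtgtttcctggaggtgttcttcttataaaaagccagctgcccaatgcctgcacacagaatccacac
Sprr2b: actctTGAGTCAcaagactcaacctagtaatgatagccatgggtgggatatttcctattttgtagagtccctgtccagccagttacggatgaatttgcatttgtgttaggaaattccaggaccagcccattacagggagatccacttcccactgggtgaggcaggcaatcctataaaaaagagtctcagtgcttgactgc

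The letters just before the starts were also compared within the Lce1, Lce3 and Sprr2 families. CAGAATAAAA was in 9 of 12 promoters of Lce1a1 to Lce1l, mostly 24 to 33 bases before the start, and in 0.14% of all promoters. AGGATAAAAG was in 5 of 6 Lce3 promoters, 22 to 33 bases before the start, and in 0.0883% of all promoters. Such strings were taken as the 10 letters shared by the most promoters of a family, so their frequency among them is a description. For the same reason they are no test of a difference between families. The Lce1 and Lce3 strings both hold ATAAAA, at about the same distance from the start. Another string, ATTTGCATTT, was in 7 of 10 Sprr2 promoters, 99 to 112 bases before the start, apart from the TGANTCA matches, and in 0.207% of all promoters. The promoters of Sprr2a1 and Sprr2a2 were equal over all 300 bases of the entry, and that of Sprr2a3 was equal to them over the 272 bases that overlap after a shift of 28 bases. Shown as examples are Lce1b (chr3:92656927-92657026, minus strand), Lce1e (chr3:92709075-92709174, minus strand), Lce3c (chr3:92944386-92944485, plus strand) and Lce3d (chr3:92957290-92957389, plus strand), each as the last 100 bases before the start. The capitals mark CAGAATAAAA in Lce1 and AGGATAAAAG in Lce3.
Lce1b: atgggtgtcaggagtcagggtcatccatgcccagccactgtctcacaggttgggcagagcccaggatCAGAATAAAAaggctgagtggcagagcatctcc
Lce1e: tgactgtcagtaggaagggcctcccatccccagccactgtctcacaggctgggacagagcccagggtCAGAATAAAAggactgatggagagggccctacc
Lce3c: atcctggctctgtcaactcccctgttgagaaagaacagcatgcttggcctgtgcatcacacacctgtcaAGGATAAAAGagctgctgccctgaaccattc
Lce3d: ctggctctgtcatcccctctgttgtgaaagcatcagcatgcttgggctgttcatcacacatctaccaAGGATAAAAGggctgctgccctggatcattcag

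Libraries held 29691929 to 48007392 counts. A principal component analysis of the 1000 most variable genes set TNTProx1 4, 5 and 6 apart from the other 10 libraries, along a first axis with 69.6% of the variance. Malat1, a nuclear RNA, was at 3410 to 3539 CPM in these 3 libraries and at 8979 to 16810 CPM in the other 10. CPM are counts relative to the library's total after TMM scaling. All 3 belong to TNTProx1, so the set and the group cannot be told apart, and results that rest on them are also given for TNTProx1 1 to 3 and for TNTProx1 4 to 6. Prox1 counts were 42.8, 72.9, 29.6, 18.7, 28.5 and 32.6 CPM in TNTProx1 1 to 6, against 23.4 to 33.1 CPM in the TNTSham libraries, and Prox1 did not pass the test (log2 fold change 0.41 ± 0.23, SE, edgeR adjusted p = 0.506). TNTSham 1 alone held many Xist counts, at 2095 CPM, against at most 2.01 CPM in the other 12 libraries.

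Cornified envelope genes did not pass the test between TNTProx1 and TNTSham. The edgeR quasi-likelihood test called 0 of the 52 members tested at a Benjamini-Hochberg adjusted p under 0.05, where the background was 0.0% of 22876 genes. Sprr3, found in the lining of mouth and oesophagus, stayed under the low-count filter, at 0.833 CPM or less in TNTProx1 and 0.842 CPM or less in TNTSham. Of the 52, 37 were lower and 15 higher in TNTProx1, with a median log2 fold change of -0.13, against -0.02 over all genes tested. At an unadjusted p under 0.05, Sbsn and Ivl were lower, where 3.92% of all genes were lower. Lce3b was higher at that level, where 8.33% of all genes were higher. The smallest edgeR adjusted p of a member was 0.311, for Sbsn. DESeq2 also called 0 members, where it called 2.7% of 20456 genes. The median log2 fold change of the members turned to 0.06 without TNTProx1 2 and was -0.46 without TNTProx1 6. In bulk tissue, fewer cells of the upper epidermis and less RNA per cell cannot be told apart.

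The TNTProx1 libraries left the TNTSham range on both sides. TNTProx1 2 held the lowest level of all 13 libraries for 47 of the 52 members and lay under the TNTSham range for 49. TNTProx1 3 lay under that range for 43 members and TNTProx1 1 for 20. Their median log2 ratio to the TNTSham mean over the 52 members was -0.229, -1.92 and -1.02 in TNTProx1 1, 2 and 3. In TNTProx1 4, 5 and 6 it was 0.0892, 0.105 and 0.782. TNTProx1 6 held the highest level of the 13 for 27 members and lay above the TNTSham range for 31. Among the TNTSham libraries the same median ran between -0.341 and 0.325, and TNTSham 1, at the upper end, held the highest level of the 13 for 15 members. The share of all counts that fell on the members was 1.52, 0.472, 0.974, 1.51, 1.61 and 2.53% in TNTProx1 1 to 6, against 1.43 to 2.61% in TNTSham.

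**Figure D1:**
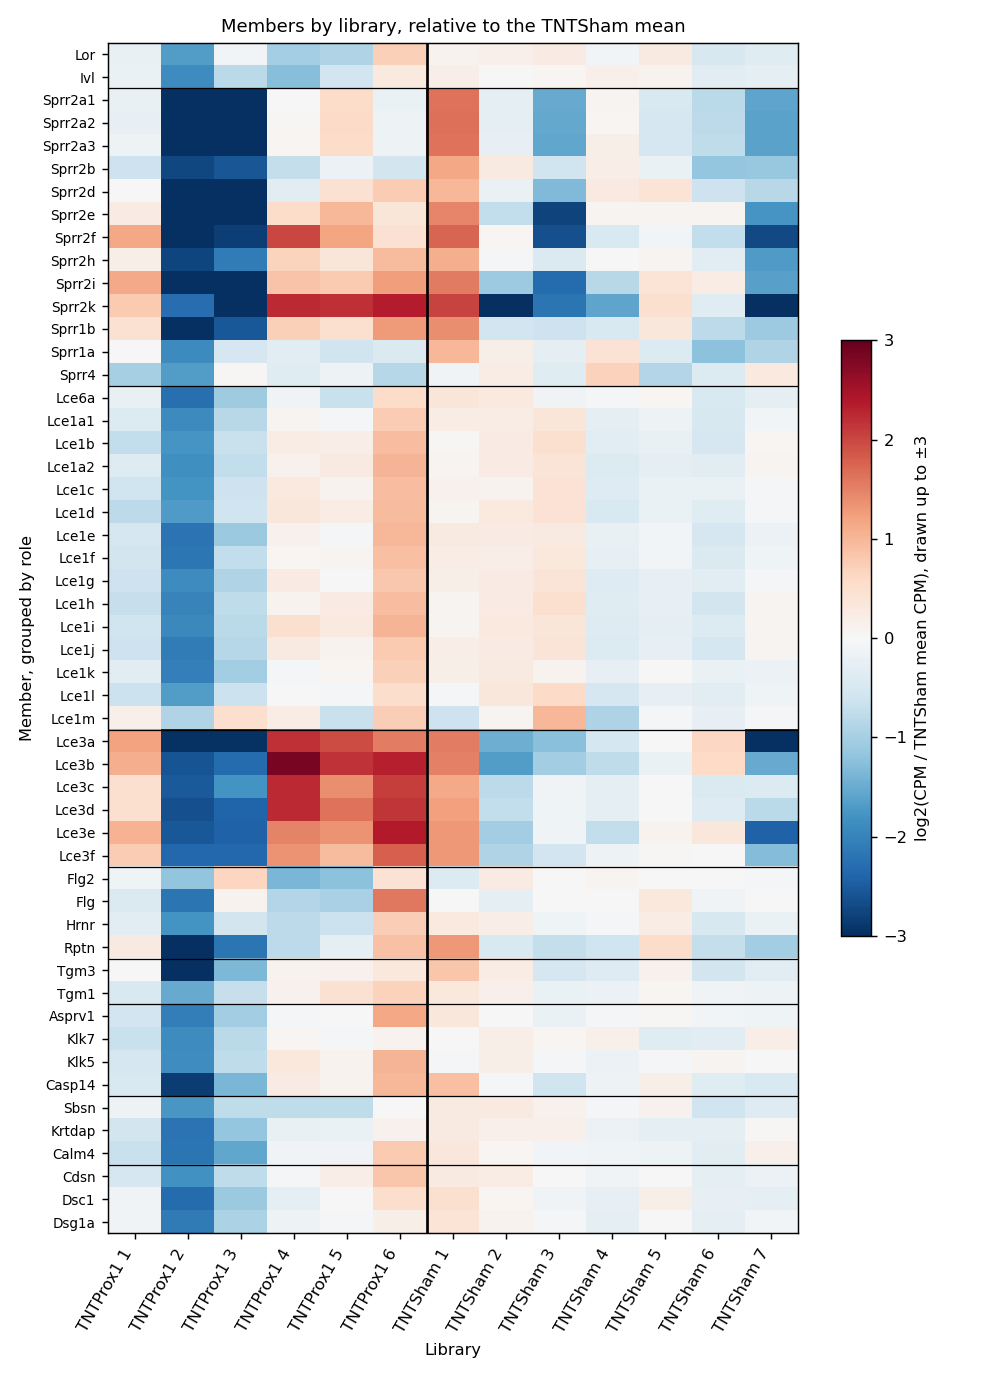
Level of each of the 52 members tested in the 13 libraries, as the log2 ratio of its CPM to the TNTSham mean, with TNTProx1 libraries left of the black line and TNTSham libraries right of it, and colours drawn up to ±3. TNTProx1 2 and 3 are blue for nearly every member and TNTProx1 6 is red for most. The Lce3 rows are red in TNTProx1 4 to 6 and in TNTSham 1, and paler red in TNTProx1 1.

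For 0 of the 52 members did all 6 TNTProx1 libraries lie above the TNTSham range, and for 0 below it, where 0.398% of all genes lay above and 0.214% below. With TNTProx1 1 to 3 alone, all 3 lay below the 7 TNTSham libraries for 18 members (34.6%), where 5.8% of all genes did, and above them for 0, where 3.45% of all genes did. The 18 were Lce1b to Lce1l, Asprv1, Krtdap, Klk7, Klk5, Calm4, Tgm1 and Cdsn. With TNTProx1 4 to 6 alone, all 3 lay above the 7 TNTSham libraries for 5 members (9.62%), where 12.8% of all genes did, and below them for 0, where 14.9% of all genes did. The share of members above was no higher than the background. These 5 were Sprr2k, Lce3b, Lce3c, Lce3d and Lce3e.

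Fitted against the 7 TNTSham libraries, TNTProx1 1 to 3 had 51 of 53 members lower, with a median log2 fold change of -0.92, against -0.00 over all 23853 genes in that fit. The test called 0 members, where the background was 0.0%. At an unadjusted p under 0.05, 28 members were lower, where 12.1% of all genes were lower, 0 were higher, where 9.34% of all genes were higher, and the smallest edgeR adjusted p was 0.0685. TNTProx1 4 to 6 against the same TNTSham libraries had 44 of 53 members higher, with a median of 0.42. Here 9 members rose at an edgeR adjusted p under 0.05, where 14.6% of 23825 genes rose, and 0 fell, where 15.0% fell and 29.6% of genes were called in either direction. The 9 were Lce3a to Lce3f, Lce1i, Klk5 and Tgm1. Both fits share the TNTSham libraries, so their values are given side by side and are not independent. The split was taken from these same counts, and the p-values of both fits, here and below, do not account for that choice.

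**Figure D2:**
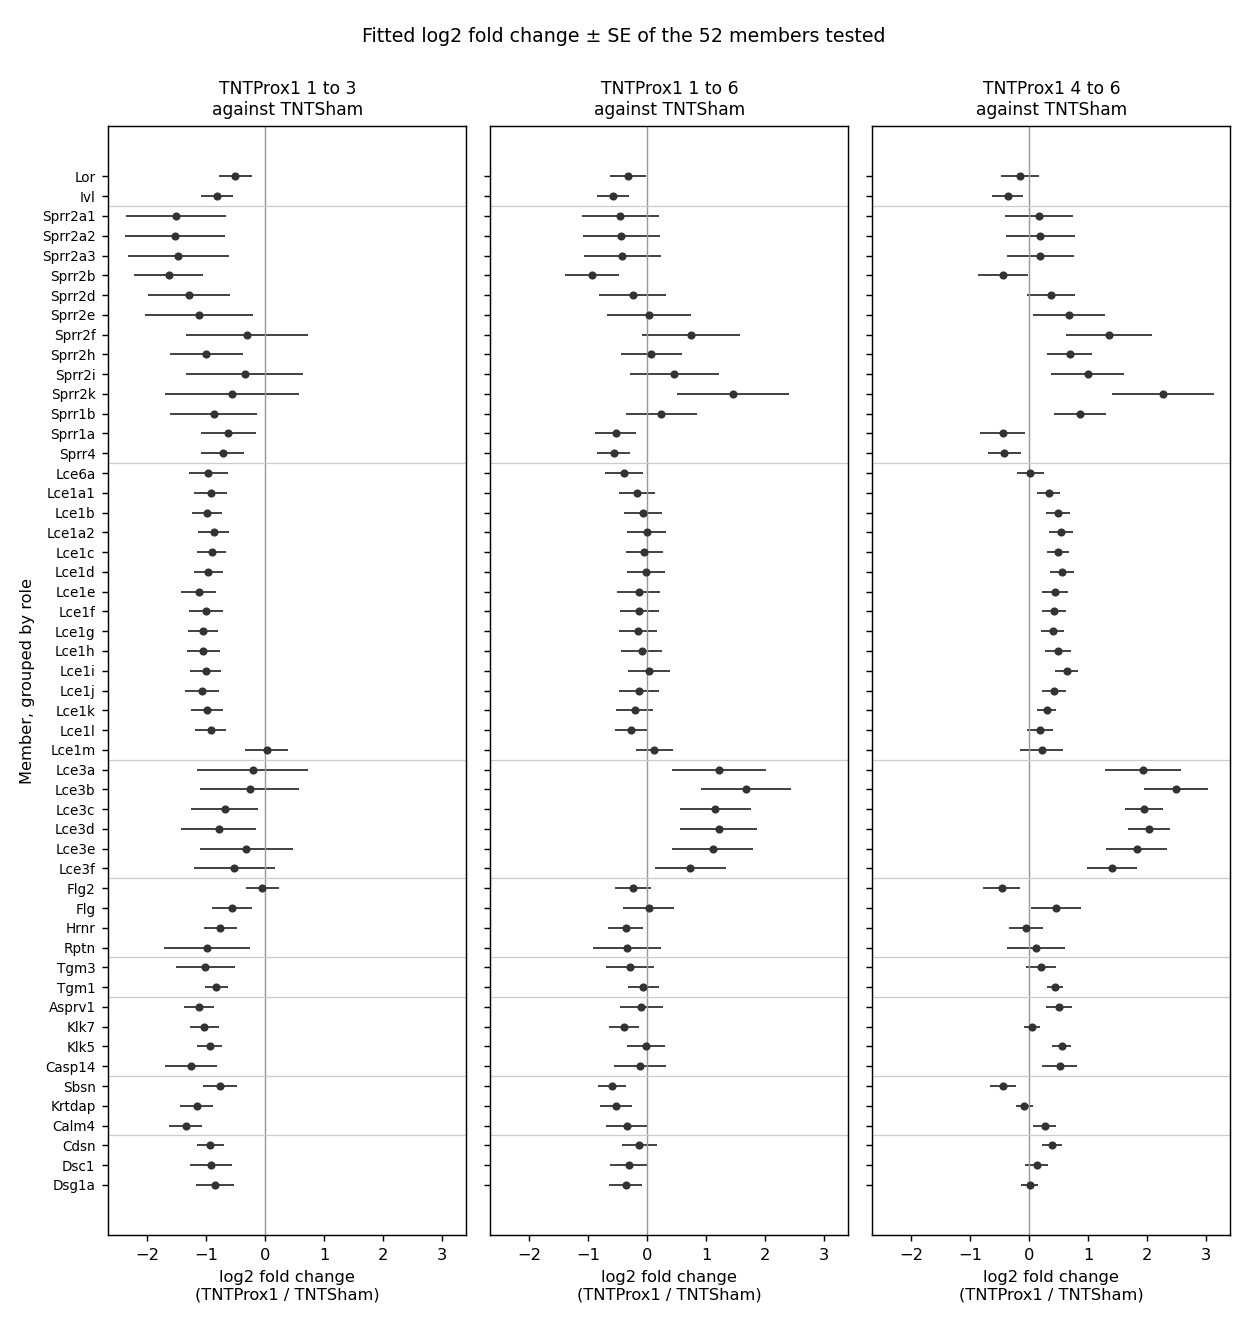
Fitted log2 fold change of TNTProx1 over TNTSham with its SE for each of the 52 members, from TNTProx1 1 to 3 (left), all 6 TNTProx1 libraries (centre) and TNTProx1 4 to 6 (right), each against the 7 TNTSham libraries. The median of the members fitted is -0.92 on the left, -0.13 in the centre and 0.42 on the right, and the 6 Lce3 genes lie farthest right in the right panel together with Sprr2k.

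Of the 2 classic envelope precursors, Lor codes for loricrin, the most abundant protein of the mature envelope, and Ivl for involucrin, an early scaffold. Lor had 71.2, 158 and 372 CPM as lowest, median and highest in TNTProx1, against 163, 242 and 274 CPM in TNTSham. Like Sprr2k, Flg2, Rptn and Klk5 below, it was outside the naming rule, which takes precursors and S100-fused proteins as 1 class led by Hrnr and Flg, and was chosen after its values were seen. The fitted log2 fold change of Lor was -0.32 ± 0.30 (SE) at an edgeR adjusted p of 0.698, and TNTProx1 libraries lay below, within and above the TNTSham range. Unlike most members, Lor was also low in TNTProx1 4 and 5, at 112 and 122 CPM, and highest in TNTProx1 6. Lor per Lce1a1 count was 0.754 and 0.883 in TNTProx1 4 and 5, 1.55 to 2.72 in the other 4 TNTProx1 libraries, and 1.32 to 2.18 in TNTSham.

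Ivl had 7.59, 17.4 and 34.5 CPM in TNTProx1, against 22.4, 29.3 and 31.9 CPM in TNTSham. TNTProx1 2 to 5 lay below every TNTSham library, TNTProx1 1 lay within their range and TNTProx1 6 above it. On the log2 scale the difference was -0.57 ± 0.27 (SE) at an edgeR adjusted p of 0.402. With TNTProx1 1 to 3 it was -0.81 ± 0.27 and with TNTProx1 4 to 6 it was -0.36 ± 0.26, so Ivl was lower in each of the fits, without passing the test in any of them (edgeR adjusted p = 0.115 and 0.309). Limma voom with quality weights gives libraries that depart from the rest less weight. It called Ivl, Krtdap, Klk7 and Calm4 lower and no other member, where 2.5% of all genes were called and 0.647% were called lower. In edgeR, Krtdap, Klk7 and Calm4 were at -1.157, -1.025 and -1.345 with TNTProx1 1 to 3. With TNTProx1 4 to 6 they were at -0.077, 0.053 and 0.27, so a lower level of these 3 rests on TNTProx1 1 to 3.

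The small proline-rich proteins are cross-bridges of the envelope, and the Sprr2 genes are known to be induced in injured and inflamed epithelium. They varied widely in both groups. Sprr2a1 had 70.7, 704 and 1189 CPM in TNTProx1, against 271, 592 and 2526 CPM in TNTSham. Sprr2a2 had 69.4, 721 and 1234 CPM in TNTProx1, against 271, 588 and 2622 CPM in TNTSham. The highest level of both was in TNTSham 1 and the lowest in TNTProx1 2, with TNTProx1 3 close to it at 88.8 CPM for Sprr2a1 and 92.5 CPM for Sprr2a2. Their log2 fold changes were -0.45 ± 0.65 and -0.43 ± 0.65 (SE, edgeR adjusted p = 0.806 and 0.816). Without TNTSham 1 these turned to 0.18 and 0.21, and without TNTProx1 1 to 3 they turned to 0.17 and 0.19. Their direction thus depends on TNTSham 1 and on TNTProx1 1 to 3.

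Sprr2a1, Sprr2a2 and Sprr2a3 cannot be read as 3 separate genes. Of the 36-base windows of their transcripts, 96.8, 97.5 and 69.7% also occur in another gene, nearly all in another Sprr2a copy. The Sprr2a1 to Sprr2a2 count ratio stayed between 0.949 and 1.02 in all 13 libraries, and that of Sprr2a3 to Sprr2a2 between 0.350 and 0.390, while their summed level ranged from 165 CPM in TNTProx1 2 to 6077 CPM in TNTSham 1. Whether multi-mapping reads were counted is not known here.

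Of the other 7 Sprr2 genes, 5 were higher and 2 lower in TNTProx1, with a median log2 fold change of 0.07. With TNTProx1 1 to 3 all 7 were lower, with a median of -0.99, and with TNTProx1 4 to 6 the median was 0.69, with 6 higher and 1 lower. Sprr2b had 31.2, 131 and 184 CPM in TNTProx1, against 93.2, 181 and 463 CPM in TNTSham, or -0.93 ± 0.45 as a log2 fold change (SE, edgeR adjusted p = 0.431). TNTProx1 2 and 3 lay below every TNTSham library and the other 4 TNTProx1 libraries within their range. Sprr2k stood at the other end of the class, at 0.264, 7.48 and 12.1 CPM in TNTProx1 and 0.127, 0.788 and 9.71 CPM in TNTSham. TNTProx1 4, 5 and 6 held 11.2, 10.9 and 12.1 CPM of Sprr2k, above TNTSham 1 at 9.71 CPM and the other TNTSham libraries at 3.34 CPM or less. The fitted log2 fold change of Sprr2k was 1.45 ± 0.94 (SE), but -0.56 with TNTProx1 1 to 3 and 2.27 with TNTProx1 4 to 6, and that of Sprr2f, the least abundant Sprr2 gene, was 0.74 ± 0.84. Sprr1a and Sprr4 were lower, at -0.53 ± 0.34 and -0.57 ± 0.28, and Sprr1b higher, at 0.24 ± 0.60. None of these passed the test.

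The late cornified envelope genes of the Lce1 group code for small cysteine-rich proteins of normal epidermis. They kept together as a family. Lce1a1, the highest of them per length, had 37.4, 122 and 239.9 CPM in TNTProx1, against 101, 133 and 180 CPM in TNTSham. Lce1d had 34.6, 103 and 219 CPM in TNTProx1, against 82.5, 110 and 153 CPM in TNTSham. For Lce1d, TNTProx1 1 to 3 lay below every TNTSham library, TNTProx1 4 and 5 within their range and TNTProx1 6 above it. The fitted log2 fold changes were -0.17 ± 0.31 for Lce1a1 and -0.02 ± 0.32 for Lce1d (SE, edgeR adjusted p = 0.848 and 0.990). Both turned positive without TNTProx1 2, at 0.02 and 0.17, and the value of Lce1d changed sign in 5 of the 13 fits that left out 1 library.

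Over Lce1a1 to Lce1l, 12 of 13 genes were lower, with a median log2 fold change of -0.13 and a range of -0.26 to 0.04. With TNTProx1 1 to 3 all 13 were lower, between -1.12 and -0.87, each at an unadjusted p under 0.05 and at an edgeR adjusted p of 0.0702 or more. With TNTProx1 4 to 6 all 13 were higher, between 0.19 and 0.64, and Lce1i passed the test (edgeR adjusted p = 0.0269). Each gene kept nearly the same share of the summed Lce1 counts in all libraries. Lce1a1 took 12.6 to 15.7% and Lce1g 8.65 to 9.99%, and the largest ratio between 2 libraries was 1.47, for Lce1l. In the same libraries the summed level itself ran from 273 CPM in TNTProx1 2 to 1853 CPM in TNTProx1 6. The 13 genes share 11.1 to 49.0% of their 36-base windows with other genes, mainly each other, and whether shared reads contribute to this evenness was not tested. Lce1m, which lies beyond the Lce3 genes, was at 0.12 ± 0.31, and Lce6a was at -0.39 ± 0.32 (log2 fold changes with SE).

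The Lce3 genes are scarce in resting skin and are known from human skin to be induced by wounding and in psoriasis. They stood higher in TNTProx1 as a family, with 6 of 6 genes at a log2 fold change between 0.74 and 1.68 and a median of 1.19, although none passed the test. Lce3c had 1.13, 13.1 and 30.5 CPM in TNTProx1, against 3.79, 5.37 and 14.2 CPM in TNTSham. Lce3b had 0.360, 7.18 and 15.6 CPM in TNTProx1, against 0.678, 1.29 and 6.23 CPM in TNTSham. Lce3d had 0.566, 7.91 and 16.7 CPM in TNTProx1, against 2.04, 2.89 and 8.31 CPM in TNTSham. For each of these 3 genes TNTProx1 4 to 6 lay above every TNTSham library, TNTProx1 2 and 3 below every one, and TNTProx1 1 between TNTSham 1 and the other 6. The log2 fold changes were 1.16 ± 0.60, 1.68 ± 0.77 and 1.22 ± 0.65 for Lce3c, Lce3b and Lce3d (SE, edgeR adjusted p = 0.461, 0.395 and 0.477).

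This direction rests on TNTProx1 4 to 6. Without them all 6 Lce3 genes were lower, with a median log2 fold change of -0.42 and no edgeR adjusted p under 0.520. With TNTProx1 4 to 6 alone all 6 rose, with log2 fold changes of 1.41 to 2.49 and edgeR adjusted p of 0.00147 to 0.0389, in a fit in which 14.6% of all genes rose. The summed Lce3 level was 35.0, 3.497, 4.48, 88.1, 59.1 and 87.6 CPM in TNTProx1 1 to 6, against 49.8 CPM in TNTSham 1 and 9.81 to 20.99 CPM in the other 6 TNTSham libraries. Set against the Lce1 family, Lce3 came to 5.16, 1.28, 0.755, 7.62, 5.43 and 4.73 counts per 100 Lce1 counts in TNTProx1 1 to 6, against 4.49 in TNTSham 1 and 0.884 to 2.73 in the other TNTSham libraries. The Lce3 share was thus high in TNTProx1 1 as well as in TNTProx1 4 to 6, and low in TNTProx1 2 and 3. The 6 Lce3 genes share 21.6 to 57.7% of their 36-base windows with other genes, mainly with each other.

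**Figure D3:**
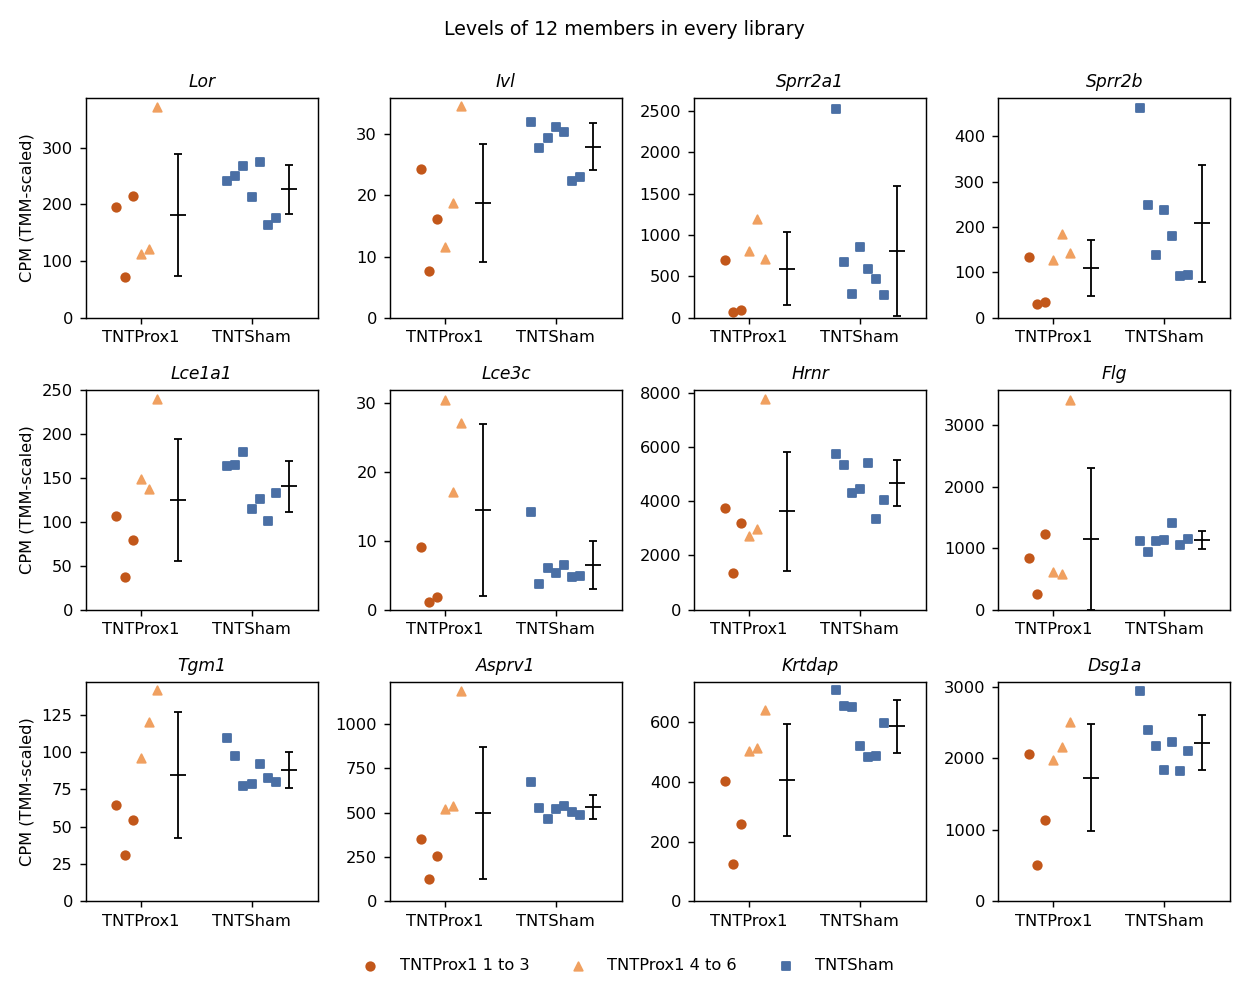
CPM of 12 members in every library, with TNTProx1 1 to 3 as circles, TNTProx1 4 to 6 as triangles and the 7 TNTSham libraries as squares, and with the mean and SD of each group drawn beside its points on axes that start at 0. TNTProx1 1 to 3 lie under the TNTSham points for Asprv1, Krtdap and Tgm1, while for Lce3c the 3 TNTProx1 triangles lie above all TNTSham points.

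Hornerin (Hrnr), filaggrin (Flg), filaggrin 2 (Flg2) and repetin (Rptn) are the S100-fused proteins of the granular layer. Hrnr had 1348, 3088 and 7791 CPM in TNTProx1, against 3365, 4450 and 5742 CPM in TNTSham, or -0.36 ± 0.30 as a log2 fold change (SE, edgeR adjusted p = 0.662). Flg had 247, 726 and 3403 CPM in TNTProx1, against 939, 1121 and 1417 CPM in TNTSham. Flg averaged 1151 ± 1150 CPM in TNTProx1 (SD, n = 6) and 1130 ± 145 CPM in TNTSham (SD, n = 7), a log2 fold change of 0.03 ± 0.43. For both genes TNTProx1 6 held the highest level of all 13 libraries. TNTProx1 1, 2, 4 and 5 lay below every TNTSham library for Flg, and TNTProx1 2, 3, 4 and 5 did so for Hrnr.

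Without TNTProx1 6 the log2 fold change of Flg was -0.69, and without any other 1 library it lay between -0.02 and 0.24. It was -0.0025 under RLE scaling, so its sign is not fixed by these data. Flg per Flg2 count was 8.06 in TNTProx1 6, 1.78 to 5.06 in the other TNTProx1 libraries and 2.51 to 4.77 in TNTSham. Flg2 was at 121, 133 and 139 CPM in TNTProx1 4, 5 and 2 and at 422 and 488 CPM in TNTProx1 6 and 3, on either side of the TNTSham range of 235 to 374 CPM. Rptn had 45.2, 372 and 976 CPM in TNTProx1, against 257, 356 and 1305 CPM in TNTSham, with its highest level in TNTSham 1. None of the 4 passed the test in any of the 3 fits.

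Tgm1 and Tgm3 code for the cross-linking enzymes. Tgm3 had 22.2, 192 and 234 CPM in TNTProx1, against 129, 150 and 333 CPM in TNTSham, or -0.29 ± 0.41 as a log2 fold change (SE, edgeR adjusted p = 0.804). Tgm1, the enzyme of the cell membrane, had 30.9, 80.0 and 142 CPM in TNTProx1, against 77.2, 82.6 and 110 CPM in TNTSham, or -0.06 ± 0.27 as a log2 fold change (SE, edgeR adjusted p = 0.944). TNTProx1 1 to 3 lay below every TNTSham library for Tgm1, and TNTProx1 5 and 6 above every one. Its sign turned without TNTProx1 1, 2 or 3, at 0.01, 0.11 and 0.01. With TNTProx1 4 to 6 alone Tgm1 rose by 0.44 ± 0.14 on the log2 scale (SE, edgeR adjusted p = 0.0271).

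The proteases were Asprv1 and Casp14, which act on filaggrin, and the kallikreins Klk5 and Klk7. All 4 were lower in TNTProx1, between -0.39 and -0.02 on the log2 scale, and none passed the test. Asprv1 had 126, 437 and 1186 CPM in TNTProx1, against 465, 520 and 675 CPM in TNTSham. It lay at 126 to 354 CPM in TNTProx1 1 to 3, below every TNTSham library. Its log2 fold change was -0.10 ± 0.36, and 0.10 without TNTProx1 2 and 0.01 without TNTProx1 3. Klk7 had 99.5, 299 and 399 CPM in TNTProx1, against 286, 388 and 426 CPM in TNTSham. TNTProx1 1 to 3 lay below every TNTSham library for Klk7 and TNTProx1 4 to 6 within their range. The log2 fold changes with TNTProx1 1 to 3 were -1.11 ± 0.25 for Asprv1, -1.02 ± 0.24 for Klk7, -0.94 ± 0.22 for Klk5 and -1.26 ± 0.44 for Casp14 (SE, edgeR adjusted p = 0.0685, 0.0694, 0.0694 and 0.130). Klk5 was the steadiest member among the TNTSham libraries, at 51.6 ± 4.03 CPM (SD, n = 7), against 51.1 ± 32.1 CPM in TNTProx1 (SD, n = 6).

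Among the secreted and calcium-binding proteins, Sbsn (suprabasin) had the smallest p of all members. It had 146, 289 and 494 CPM in TNTProx1, against 323, 536 and 586 CPM in TNTSham. TNTProx1 2 to 5 lay below every TNTSham library, and TNTProx1 1 and 6 within their range. The fitted log2 fold change of Sbsn was -0.60 ± 0.24 (SE) at an edgeR adjusted p of 0.311, -0.76 ± 0.29 with TNTProx1 1 to 3 and -0.44 ± 0.22 with TNTProx1 4 to 6. Krtdap, a secreted keratinocyte protein made as cells begin to differentiate, had 126, 452 and 639.5 CPM in TNTProx1, against 484, 597 and 705 CPM in TNTSham. Calm4, a calmodulin-like protein of keratinocytes, had 289, 1030 and 2270 CPM in TNTProx1, against 1049, 1258 and 1673 CPM in TNTSham. TNTProx1 1 to 3 lay below every TNTSham library for both genes, and the log2 fold changes were -0.52 ± 0.28 for Krtdap and -0.33 ± 0.35 for Calm4 (SE, edgeR adjusted p = 0.470 and 0.735).

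The desmosome members were all lower without passing the test. Dsg1a, a desmosomal cadherin of the upper epidermis, had 513, 2018 and 2508 CPM in TNTProx1, against 1818, 2164 and 2944 CPM in TNTSham. Dsc1 had 291, 1269 and 2104 CPM in TNTProx1, against 1192, 1337 and 2019 CPM in TNTSham. TNTProx1 2 and 3 lay below every TNTSham library for both genes. Their log2 fold changes were -0.36 ± 0.28 and -0.31 ± 0.33 (SE, edgeR adjusted p = 0.642 and 0.735). Cdsn was at -0.13 ± 0.30. Dsg1a shares 39.5% of its 36-base windows with other genes, mostly with its neighbour Dsg1b.

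Levels per length, as the mean CPM per kilobase of exon in TNTSham, put Calm4 first at 1444, followed by Krtdap at 862, Hrnr at 418 and Dsg1a at 389. Lor, at 127, ranked 19th of the 53, and Lce3b, at 3.87, 49th. The members also differed in how steady they were among TNTSham libraries. The coefficient of variation of CPM across the 7 TNTSham libraries was at most 27.9% for Lce1a1 to Lce1l, and 15.3% for Krtdap. For the 6 Lce3 genes it was 53.8 to 96.1%, and for the 10 Sprr2 genes 54.9 to 144%. TNTSham 1 held the highest TNTSham level of every Lce3 and every Sprr2 gene.

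The members of the epidermal differentiation complex were also set in their order along it. The 40 tested members there had a median log2 fold change of -0.11 with 15 higher and 25 lower. For the 12 members on other chromosomes the median was -0.30 with 12 of 12 lower. With TNTProx1 1 to 3 the medians were -0.90 over 41 members of the complex and -0.97 over these 12. With TNTProx1 4 to 6 they were 0.44 and 0.23, with 10 of the 12 higher. From the start of Lor, the Sprr2 genes lie 132.7 to 349.4 kb away, Lce1a1 to Lce1l 565 to 768 kb away and the Lce3 genes 843 to 909 kb away. The Lce1 and Lce3 stretches are neighbours, and their median log2 fold changes were -0.13 and 1.19 in the whole group, -0.98 and -0.42 with TNTProx1 1 to 3, and 0.44 and 1.94 with TNTProx1 4 to 6. Within Sprr2 the value was -0.45 at Sprr2a1 and 1.45 at Sprr2k, the genes at opposite ends of the stretch.

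**Figure D4:**
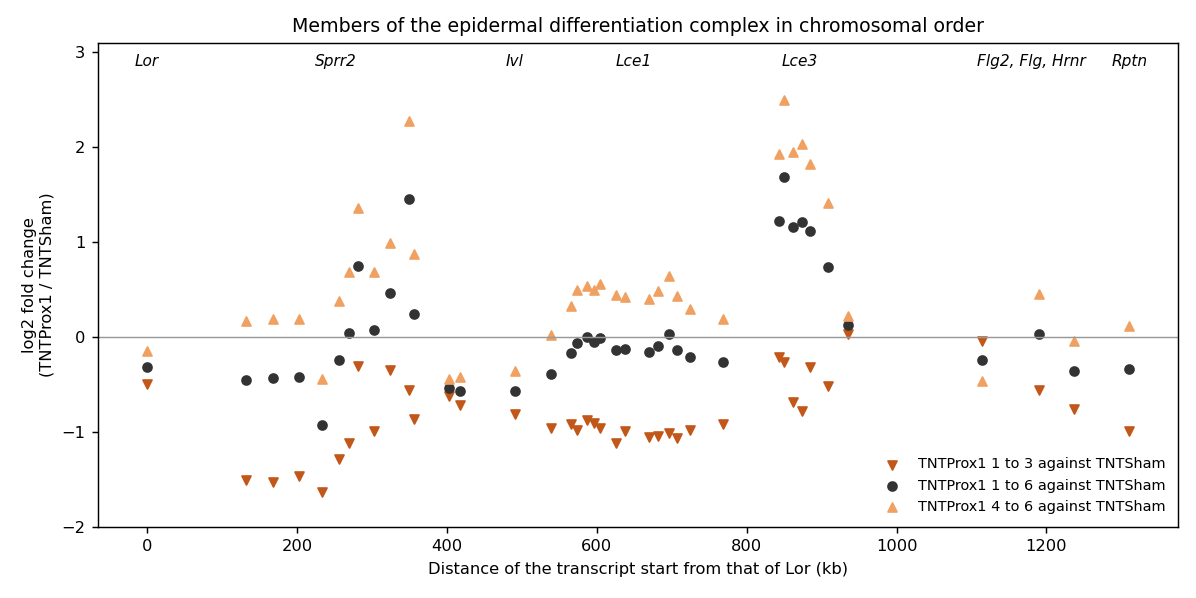
Fitted log2 fold change of TNTProx1 over TNTSham for the tested members of the epidermal differentiation complex, against the distance of their transcript start from that of Lor in kb (GRCm38 annotation), with downward triangles for TNTProx1 1 to 3, circles for all 6 and upward triangles for TNTProx1 4 to 6. The Lce1 points form flat rows near -1, 0 and 0.5, and the Lce3 points next to them reach 2.49.

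Markers of basal keratinocytes, the cells from which the barrier is renewed, were low in TNTProx1 2 and 3, as most members were. The summed level of the 7 basal markers was 6560, 1520, 5040, 9590, 10500 and 10000 CPM in TNTProx1 1 to 6, against 5890 to 9550 CPM in TNTSham, and none of the 7 was at 0 in any library. Krt5 and Krt14, keratins of the basal layer, came together to 4696, 987, 3568, 7768, 8764 and 8229 CPM in TNTProx1 1 to 6, against 4276 to 7582 CPM in TNTSham. For this pair TNTProx1 2 and 3 lay below the TNTSham range and TNTProx1 4 to 6 above it. In the fit of TNTProx1 4 to 6, Krt5 and Krt14 rose by 0.41 ± 0.12 and 0.81 ± 0.20 on the log2 scale. Both passed the test (SE, edgeR adjusted p = 0.0251 and 0.0113), where 14.6% of all genes rose, and no other basal marker did. Over the 7 markers the median log2 fold change in that fit was 0.10, with Krt15, Col17a1 and Trp63 lower. The summed level of the 7 lay above the TNTSham range in TNTProx1 4 to 6. Their mean log2 score was 0.297 to 0.332 there, against -0.0401 to 0.378 in TNTSham. The members came to 3.21, 4.30, 2.84, 1.90, 1.88 and 3.47 counts per Krt5 and Krt14 count in TNTProx1 1 to 6, against 2.76 to 4.02 in TNTSham. Relative to these 2 keratins, TNTProx1 2, the library with the lowest member levels, was the highest of all 13, and TNTProx1 4 and 5 were the lowest. With the mean log2 level of the 7 basal markers as a covariate, 25 members were higher and 27 lower, the median log2 fold change was -0.00, and 0 were called, where the background was 0.0%. That score was -1.74 in TNTProx1 2 and between -0.214 and 0.378 in every other library, so the adjustment rests largely on TNTProx1 2. The part of basal cell content in these differences was not tested.

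**Figure D5:**
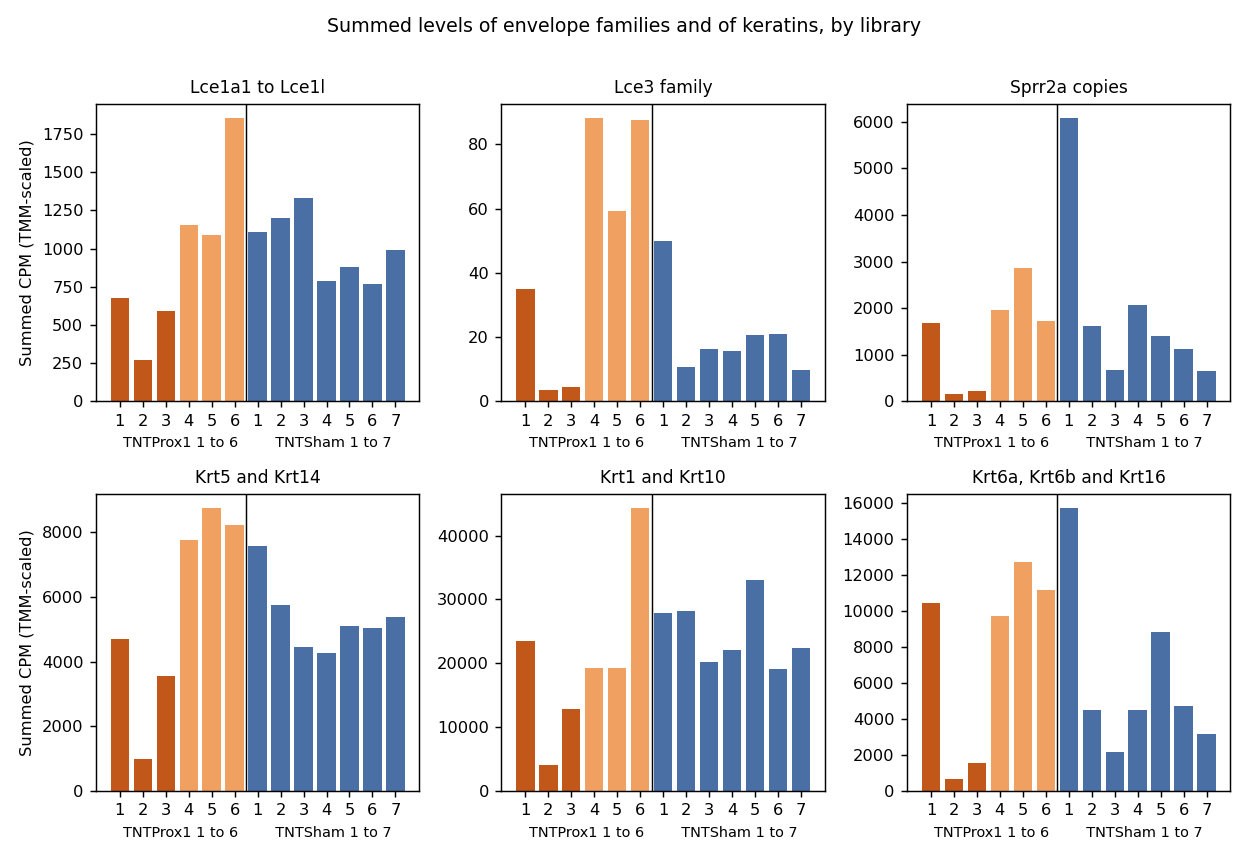
Summed CPM of Lce1a1 to Lce1l, the Lce3 family, the 3 Sprr2a copies, the basal keratins Krt5 and Krt14, the suprabasal keratins Krt1 and Krt10, and the stress keratins Krt6a, Krt6b and Krt16 in each library, with TNTProx1 1 to 6 left of the black line and TNTSham 1 to 7 right of it. TNTProx1 2 is the lowest bar in each panel, and the Lce3 and basal keratin bars of TNTProx1 4 to 6 lie above those of every TNTSham library.

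Other gene groups of the upper epidermis were set beside the members, and 0 of their genes passed the edgeR test in the whole group. DESeq2 also called 0 of them, while limma voom called 5 of 19 barrier lipid genes, 2 of 18 regulators and 1 of 12 other envelope proteins, where it called 2.5% of all genes. The 6 keratins of late differentiation were all lower, with a median log2 fold change of -0.40. Krt10 was at -0.33 ± 0.33 and Krt1 at -0.18 ± 0.43 (SE). The members came to 0.642 to 1.04 counts per count of these 2 keratins in TNTProx1, against 0.577 to 0.988 in TNTSham, which is a narrower spread than that of the members themselves. The 4 stress keratins of wounded epidermis were all higher, with a median of 0.26, Krt6a at 0.37 ± 0.54 and Krt6b at 0.39 ± 0.70. Krt6a, Krt6b and Krt16 together were at 10410, 651, 1528, 9720, 12720 and 11140 CPM in TNTProx1 1 to 6, against 15720 CPM in TNTSham 1 and 2150 to 8845 CPM in the other TNTSham libraries. The libraries with many Lce3 counts, TNTProx1 1 and 4 to 6 and TNTSham 1, were thus also those with most stress keratin counts.

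Of 10 other desmosome genes 8 were lower, with a median of -0.22, Dsp at -0.43 ± 0.27 and Perp at -0.21 ± 0.32. Of 12 other envelope proteins 10 were lower, with a median of -0.28, Kprp at -0.53 ± 0.28 and Ppl at -0.42 ± 0.20. Of 14 genes of filaggrin breakdown, proteases and their inhibitors 10 were lower, with a median of -0.07, Spink5 at -0.23 ± 0.26 and Ctsd at 0.14 ± 0.14. Of 19 barrier lipid genes, which make and export the ceramides between the dead cells, 14 were lower, with a median of -0.10, Elovl4 at -0.21 ± 0.24 and Abca1 at 0.09 ± 0.17. Of 18 regulators of terminal differentiation 12 were lower, with a median of -0.12, Rora at -0.40 ± 0.16 and Maf at -0.14 ± 0.10. Of 6 tight junction genes tested 6 were lower, with a median of -0.23, Tjp1 at -0.04 ± 0.14 and Cldn1 at -0.43 ± 0.23, and Cldn7 stayed under the filter. All of these values are log2 fold changes with SE, set against a median of -0.02 over all genes.

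For these 8 lists of epidermal genes too, the TNTProx1 libraries parted. With TNTProx1 1 to 3 the list medians lay between -0.81 and -0.53, and with TNTProx1 4 to 6 between -0.11 and 0.82, as log2 fold changes against the 7 TNTSham libraries. With TNTProx1 4 to 6, 3 of 12 other envelope proteins rose, where 14.6% of all genes did, among them Cnfn (cornifelin) by 1.28 ± 0.16 (SE, edgeR adjusted p = 0.000365). In the same fit 2 of 10 desmosome genes, 3 of 14 filaggrin breakdown genes, 4 of 19 barrier lipid genes and 3 of 18 regulators rose. Abca1, a cholesterol exporter, fell. None of the late differentiation keratins, stress keratins or tight junction genes passed the test. The regulators that rose were Klf4, Ovol1 and Cebpa, transcription factors of keratinocyte differentiation. Their log2 fold changes were 0.56 ± 0.13, 0.66 ± 0.21 and 0.43 ± 0.14 (SE). Over all 18 regulators, 9 were higher and 9 lower with TNTProx1 4 to 6, with a median of 0.06.

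Genes of the cells around the epidermis were counted as well. The 7 fibroblast markers were all higher, with a median log2 fold change of 0.36 and a summed level of 44100 to 119000 CPM in TNTProx1, against 32800 to 58800 CPM in TNTSham. Of these markers Col1a1 was at 0.64 ± 0.31 and Col1a2 at 0.55 ± 0.25 (log2 fold change, SE). TNTProx1 3 and 2, low for the members, held 119000 and 69300 CPM, and TNTProx1 6, high for the members, held 74100 CPM. Of 8 skeletal muscle markers 7 were lower, with a median of -0.69 and a summed level of 537 to 1900 CPM in TNTProx1, against 1260 to 3400 CPM in TNTSham, and the lowest was TNTProx1 2. Myh1 was at -0.87 ± 0.28 and Acta1 at 0.07 ± 0.41. None of these markers passed the edgeR test. DESeq2 called 2 of the 8 muscle markers, where it called 2.7% of all genes, and limma voom called 0 of the 8.

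Of 11 hair shaft and root sheath markers 9 were lower, with a median of -0.20 and summed levels of 295 to 1230 CPM in TNTProx1, against 365 to 1440 CPM in TNTSham. Krt71 was at -0.20 ± 0.42 and Krt25 at -0.19 ± 0.43. Of 9 sebaceous markers 7 were lower, with a median of -0.06 and sums of 1750 to 3190 CPM in TNTProx1, against 2100 to 3660 CPM in TNTSham. Scd1 was at -0.05 ± 0.20 and Fasn at -0.03 ± 0.17. Of 7 neutrophil markers tested 5 were higher, with a median of 0.23 and sums of 88.8 to 249 CPM in TNTProx1, against 40.1 to 289 CPM in TNTSham. S100a8 was at -0.10 ± 0.48 and S100a9 at 0.17 ± 0.49, and Camp was at 0 in at least 1 library. Of 5 melanocyte markers 3 were lower, with a median of -0.01 and sums of 40.4 to 101 CPM in TNTProx1, against 48.6 to 92.4 CPM in TNTSham. Dct was at -0.01 ± 0.23 and Tyrp1 at 0.19 ± 0.22. The part of these cells in the members' values was not tested.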

How the data were processed

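Total RNA of mouse tail tissue was depleted of ribosomal RNA and sequenced in pairs from stranded libraries, per the labels' protocols. The deposited values are whole-number counts per gene in 13 libraries. Per the submitters' processing notes, fastp 0.20.1, HISAT2 2.2.1, featureCounts of Subread 2.0.2, DESeq2 1.34.0 and R 4.1.2 were used with GRCm39. Annotation release, strand setting and handling of multi-mapping reads are not known here. Library totals ran from 29691929 to 48007392 counts.

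Symbols came from GENCODE M21 (GRCm38), which matched 52081 of 55357 gene IDs. Exon lengths and the 36-base windows shared between genes came from the same release. Promoters came from RefSeq tables of GRCm38.p6. The members and lists were chosen with earlier results of these data known, and neither they nor the comparison are independent of those results.

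Counts were filtered with filterByExpr and scaled by TMM in edgeR 4.0.16 (R 4.3.3), which left 22876 genes. TNTProx1 was compared with TNTSham in a quasi-likelihood fit with the group as the only term, and p-values were adjusted by Benjamini-Hochberg over all genes tested. The alternatives were DESeq2 1.42.0, RLE scaling, no filter, a filter of 1 CPM in 6 libraries, limma 3.58.1 voom with quality weights, a basal keratinocyte score as covariate, fits without TNTProx1 4 to 6 or 1 to 3, and each library left out in turn. The scripts were tested on simulated data. Full values are given for the 2 members of each role class with the highest mean CPM, with envelope precursors and S100-fused proteins as 1 class and secreted and calcium-binding proteins as another, and for the 3 members of smallest p in each direction. Of each further list the 2 genes of highest mean CPM are named. Other genes of these lists, among them Cnfn, Klf4, Ovol1 and Cebpa, were named after their values were seen.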

Additional observations from a re-analysis of the deposited data

Results flagged for a closer look

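Of 106 groups of values looked at, 53 members in each of the 2 groups, 19 had 1 library far from the rest by Dixon's test. Chance flags about 1 in 20 groups of independent, normally distributed values. The members vary together across libraries and CPM were used as they are, so the 19 flags are not separate observations and that rate is no measure of excess. TNTSham 1 was the highest library in 15 of the 19, and in them 9 of 10 Sprr2 genes and 3 of 6 Lce3 genes appear.

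In TNTSham 1, Sprr2a2 stood at 2620 CPM, against 870 CPM in the next TNTSham library. Sprr2a1 stood at 2530 CPM there, against 860 CPM, and Sprr2a3 at 930 CPM, against 339 CPM. These 3 share most of their sequence and count as 1 observation. Sprr2b was at 463 CPM in TNTSham 1, Sprr2h at 33.1 CPM, Sprr2i at 25.4 CPM, Sprr2e at 15.0 CPM, Sprr2k at 9.71 CPM and Sprr2f at 3.51 CPM. Sprr1b was at 156 CPM, where the next library had 75.5 CPM. Among the Lce3 genes of TNTSham 1, Lce3c was at 14.2 CPM, Lce3d at 8.31 CPM and Lce3f at 8.08 CPM, and the next libraries had 6.41, 3.5 and 3.39 CPM. The proteases Asprv1, at 675 CPM, and Casp14, at 223 CPM, were also highest in TNTSham 1 among the TNTSham libraries.

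TNTProx1 6 stood apart for Hrnr, at 7790 CPM against 3750 CPM in the next TNTProx1 library, and for Flg, at 3400 CPM against 1220 CPM. In TNTSham 3, Lce1m was at 31.5 CPM, against 16.8 CPM in the next library. In TNTSham 5, Flg was at 1420 CPM, against 1140 CPM in the next library.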

How the results depend on the processing

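No paired analysis was possible because the labels give no replicate numbers shared between the groups. Over all genes, 0 passed an adjusted p of 0.05 in the edgeR fit of all 13 libraries; 552 passed with DESeq2, 1 without a filter on low counts, 573 with limma voom, 7047 without TNTProx1 1 to 3, and 0 to 589 with 1 library left out (589 without TNTProx1 1). Among the members, 0 passed in the same fit; 4 did with limma voom and 9 without TNTProx1 1 to 3, and 0 with any 1 library left out. The median log2 fold change of the members, -0.13, was -0.83 with limma voom, -0.92 without TNTProx1 4 to 6 and 0.42 without TNTProx1 1 to 3, and lay between -0.46 and 0.0625 with 1 library left out.

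Of 168 values of 21 described genes under the 8 other settings, 24 turned sign. Without TNTProx1 1 to 3 these were Tgm3 at 0.20, Tgm1 at 0.44, Sprr2a2 at 0.19, Sprr2a1 at 0.17, Lce1a1 at 0.33, Lce1d at 0.56, Asprv1 at 0.51, Klk7 at 0.053, Calm4 at 0.27, Dsg1a at 0.0091 and Dsc1 at 0.13. With the basal keratinocyte score they were Tgm1 at 0.078, Lce1d at 0.11 and Asprv1 at 0.028. Flg was at -0.00053 with DESeq2, -0.0025 with RLE, -0.32 with limma voom and -0.55 without TNTProx1 4 to 6. Lce3b, Lce3c and Lce3d were at -0.29, -0.72 and -0.996 with limma voom, and at -0.26, -0.68 and -0.79 without TNTProx1 4 to 6. With 1 library left out, 17 of 273 values turned, in ranges of -0.27 to 0.11 for Tgm1, -0.69 to 0.24 for Flg, -0.76 to 0.21 for Sprr2a2, -0.77 to 0.18 for Sprr2a1, -0.46 to 0.0195 for Lce1a1, -0.32 to 0.17 for Lce1d and -0.57 to 0.10 for Asprv1. The cause of these changes was not tested. Depth limits the scarce members, such as Sprr3, Sprr2f and Lce3a, with 146, 701 and 1333 counts in all 13 libraries together.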
